A study of Mus musculus with 6 samples.

Results

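The genes of the mitochondrial genome were examined in AE9a leukemia cells of 2 marrow regions, central (CBM) and endosteal (EBM) bone marrow. They were taken as every gene of the count table whose name starts with mt-, which gave 37 of 54532 genes. Of these, 13 code for proteins, 2 are ribosomal RNAs (rRNAs) and 22 are transfer RNAs (tRNAs), and the 3 kinds are described apart. In EBM both mitochondrial rRNAs had higher counts than in CBM in each library, by 1.61-fold for mt-Rnr2 and 1.47-fold for mt-Rnr1. The protein genes had a median log2 fold change of -0.0069 beside 0.0017 over all genes tested. An adjusted p under 0.05 was reached by neither rRNA with edgeR's quasi-likelihood test and by both with DESeq2.

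Mammalian mitochondria keep a small circular genome that is transcribed from both strands into long precursors. Most genes are read from the heavy strand, and mt-Nd6 with a minority of the tRNAs from the light strand. The tRNAs lie between the other genes like punctuation marks, and their excision by nuclear-encoded enzymes frees the mRNAs and rRNAs. The encoded proteins are core subunits of respiratory complexes I, III, IV and V, and the rRNAs belong to the mitochondrial ribosome that translates them. Leukemia stem cells of acute myeloid leukemia are known for their reliance on oxidative phosphorylation.

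The cells came from C57BL/6 mice carrying AE9a, a splice form of the AML1-ETO fusion, brought by retrovirus into c-Kit+ marrow progenitors and carried through transplantation to the third generation. Both groups share this genotype, and their labels name no drug. CBM cells were flushed from femurs and tibias. EBM cells were released from the flushed bones by collagenase I at 37 °C, so region and digestion cannot be told apart. There were 3 libraries per region, and no source used here states that they came from separate mice, so p-values measure the spread between these libraries. The labels speak of cell sorting and give the library type as mRNA, while the study's methods describe rRNA-depleted RNA and directional libraries read as pairs of 150 bases. Which of these holds was not tested, and either a depletion step or a selection of mRNA would act on the rRNA counts.

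The libraries held 16436526 to 19462964 counts on genes, and 13352 genes were counted highly enough to be tested. Values are given as CPM, a scale on which the libraries share one total after correction by the TMM method, with mean ± SD over 3 libraries. The progenitor genes Kit, Cd34, Runx1 and Runx1t1 summed to 566 to 993 CPM in CBM and 590 to 900 in EBM. The summed levels of marker genes of other marrow cells overlapped between the regions. The 8 erythroid markers ranged from 2454 to 7879 CPM in CBM and from 3003 to 6145 in EBM, and the 6 neutrophil markers from 3.32 to 223 and from 34.3 to 160. The 8 markers of osteoblasts and stroma summed to at most 1.22 CPM, with Alpl, Bglap2 and Sp7 at 0. The 7 macrophage markers summed to at most 3.95 CPM, the 5 endothelial to at most 3.37, the 6 lymphoid to at most 14.5 and the 5 megakaryocyte markers to at most 28.5. The part of such cells in the results was not tested, and in bulk RNA fewer cells of a type and less RNA per cell cannot be told apart.

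Sequences are given for the places where the results turn on the layout of the genome. All are from GENCODE M21 transcripts of the mouse build GRCm38, in which the 37 genes have the same coordinates as in the count table. The first joins the last 30 bases of mt-Rnr1, the whole of mt-Tv in capitals and the first 30 bases of mt-Rnr2 (MT, bases 995 to 1123, plus strand). It shows that the 2 rRNA genes are parted only by 1 tRNA, with no base between them.

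mt-Rnr1 end, mt-Tv, mt-Rnr2 start: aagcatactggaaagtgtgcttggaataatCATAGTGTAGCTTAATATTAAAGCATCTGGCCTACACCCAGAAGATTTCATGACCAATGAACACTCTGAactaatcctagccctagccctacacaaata

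The second is the place where mt-Atp8 runs into mt-Atp6 (MT, bases 7907 to 7989, plus strand). The capitals mark the 43 bases that belong to both genes, and a read there has no single gene of origin.

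mt-Atp8 end, mt-Atp6 start: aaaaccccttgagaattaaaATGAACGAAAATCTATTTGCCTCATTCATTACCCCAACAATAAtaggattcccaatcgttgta

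The next are the 3 tRNAs with the most counts, all read from the light strand, with the letters of the anticodon in capitals. They lie on MT at bases 15356 to 15422 (mt-Tp), 5192 to 5257 (mt-Tc) and 5089 to 5159 (mt-Tn), on the minus strand.
mt-Tp: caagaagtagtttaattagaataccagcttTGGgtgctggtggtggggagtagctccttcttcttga
mt-Tc: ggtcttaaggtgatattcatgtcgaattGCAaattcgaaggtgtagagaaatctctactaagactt
mt-Tn: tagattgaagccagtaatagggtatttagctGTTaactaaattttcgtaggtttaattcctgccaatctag

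The last pair shows why some protein genes are uncertain here. The first 60 bases of mt-Co2 (MT, bases 7013 to 7072, plus strand) and of Gm28661, a pseudogene on the minus strand of chromosome 1 (24614885 to 24615565), are the same letter for letter.
mt-Co2: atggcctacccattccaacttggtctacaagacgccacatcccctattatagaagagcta
Gm28661: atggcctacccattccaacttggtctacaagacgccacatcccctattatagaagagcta

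The mitochondrial rRNAs were described first because they were the members with the largest differences relative to their spread. mt-Rnr2 (ENSMUSG00000064339, MT, bases 1094 to 2675, plus strand) is the 16S rRNA of the large ribosomal subunit. CBM replicates 1 to 3 had 3705, 4350 and 4363 counts on it, and EBM replicates 1 to 3 had 5902, 5802 and 6336. This gave 211, 229 and 216 CPM for the CBM libraries and 326, 323 and 407 CPM for the EBM libraries. All 3 EBM libraries lay above all 3 CBM libraries, with EBM replicate 3 the highest. The mean level was 219 ± 9.30 CPM for CBM, against 352 ± 47.8 CPM for EBM (SD, n = 3 each). On the log2 scale EBM was higher by 0.69, with a standard error of 0.12 and a 95% interval from 0.40 to 0.97. In edgeR's quasi-likelihood test the adjusted p was 0.182 (unadjusted p = 0.000743), which placed the gene at rank 54 of the 13352 genes.

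mt-Rnr1 (ENSMUSG00000064337, MT, bases 70 to 1024, plus strand) is the 12S rRNA of the small subunit and lies upstream of mt-Rnr2 on the same precursor. The CBM libraries had 3547, 3966 and 4154 counts on it and the EBM libraries 4754, 5120 and 5611. This came to 202, 209 and 206 CPM for CBM and to 262, 285 and 361 CPM for EBM. The regions again did not overlap, and the CBM libraries were within a few CPM of each other. The mean level was 206 ± 3.50 CPM for CBM, against 303 ± 51.4 CPM for EBM (SD, n = 3 each), which is a log2 fold change of 0.56 (standard error 0.13, 95% interval 0.24 to 0.87). The edgeR adjusted p was 0.325 (unadjusted p = 0.0042, rank 170).

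Both rRNAs were thus among genes with EBM libraries above all CBM libraries, which held for 7.47% of the genes tested, and among those higher in EBM at an unadjusted p under 0.05, which held for 4.01%. At an adjusted p under 0.05 edgeR called 0% of the genes. DESeq2 called 1.43% of its genes, 1.07% as higher in EBM. It gave both rRNAs an adjusted p under 0.05, at 0.000722 for mt-Rnr2 and 0.0445 for mt-Rnr1, with log2 fold changes of 0.69 and 0.56. Without EBM replicate 3 the log2 fold change was 0.56 for mt-Rnr2 and 0.40 for mt-Rnr1 in edgeR. Over all the alternatives run the edgeR, limma or DESeq2 adjusted p ran from 0.000208 to 0.798 for mt-Rnr2 and from 0.0266 to 0.985 for mt-Rnr1. Nuclear genes typed as rRNA in the table had 272, 443 and 291 counts in CBM and 533, 263 and 305 in EBM, so their ranges overlapped. They took only 0.00145% to 0.00289% of the counts of a library, too few to show whether library preparation differed between the regions. The part of library preparation in the mitochondrial rRNA values was not tested.

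**Figure D1:**
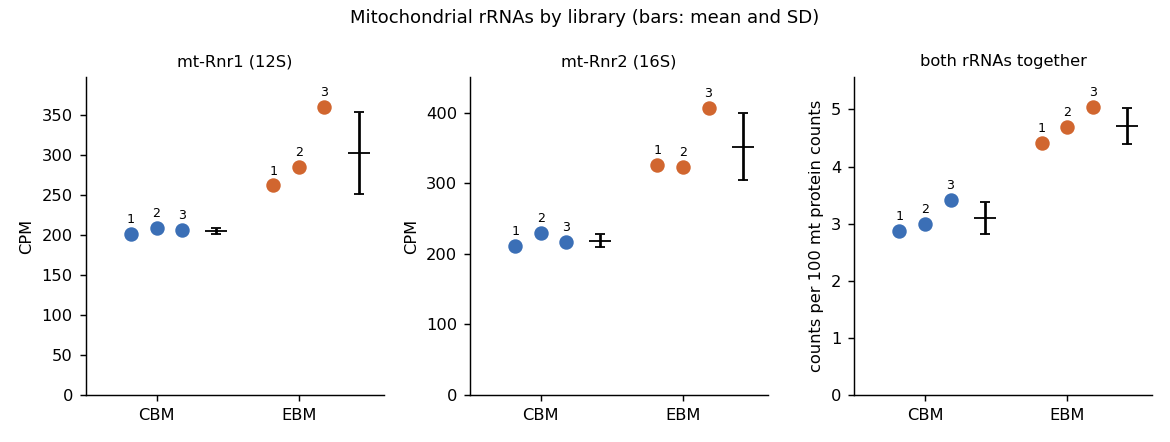
Each point is 1 library, numbered by replicate, for mt-Rnr1 and mt-Rnr2 in CPM and for both rRNAs as counts per 100 counts on mitochondrial protein genes, and the bars give the mean and SD of 3 libraries. The EBM points sit above the CBM points in each panel, and in the right panel they lie between 4.41 and 5.04 against 2.88 to 3.42.

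A ratio within the mitochondrial genes does not depend on the nuclear total. For each 100 counts on protein genes there were 2.88, 2.99 and 3.42 counts on the rRNAs in CBM and 4.41, 4.69 and 5.04 in EBM. The lowest EBM library was above the highest CBM library, and the ratio was 1.52-fold higher in EBM (exact permutation test on the log2 scale, two-sided p = 0.1, the smallest that 3 against 3 libraries allow). As a share of all counts the rRNAs took 0.0425%, 0.0441% and 0.0438% in CBM and 0.0579%, 0.0604% and 0.0727% in EBM (exact permutation test, two-sided p = 0.1). The 2 rRNAs were also set against each other. There were 95.7, 91.2 and 95.2 counts of mt-Rnr1 per 100 of mt-Rnr2 in CBM and 80.5, 88.2 and 88.6 in EBM, so this ratio was lower in each EBM library (exact permutation test, two-sided p = 0.1). This ratio was chosen after the values were seen.

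The protein genes took most of the mitochondrial counts. They held between 94.7% and 96.7% of the counts on mitochondrial genes of a library, the rRNAs between 2.78% and 4.78% and the tRNAs between 0.398% and 0.535%. Of all counts, the protein genes took 1.48%, 1.48% and 1.28% in CBM and 1.31%, 1.29% and 1.44% in EBM. The regions overlapped, with means of 1.41% ± 0.112 and 1.35% ± 0.083 (SD, n = 3 each; exact permutation test, two-sided p = 0.4). With the total scaled by TMM the difference had the opposite sign and was 0.00567 percentage points.

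None of the 13 protein genes passed an adjusted p of 0.05 in edgeR, and 0 had an unadjusted p under 0.05, where 7.91% of all genes did. DESeq2 likewise called 0 of these genes. By their values 6 were higher and 7 lower in EBM. For the 12 genes other than mt-Atp8 the log2 fold change was between -0.20 and 0.15, and their 95% intervals together ran from -0.60 to 0.55, or from 0.66-fold to 1.46-fold. The counts behind these intervals ranged from 755 counts over the 6 libraries for mt-Nd3 to 718359 for mt-Co1.

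**Figure D2:**
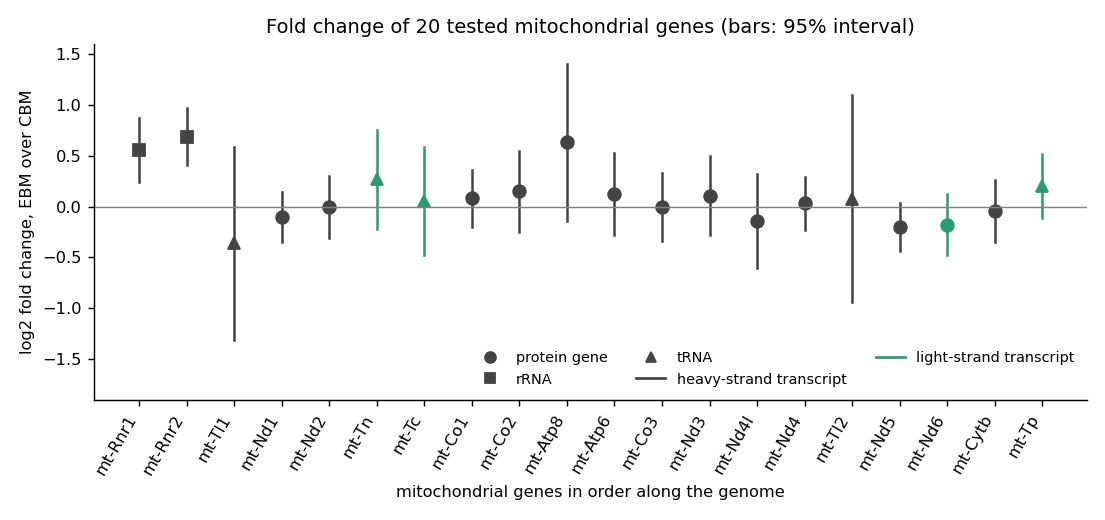
Log2 fold change of EBM over CBM for the 20 mitochondrial genes that were tested, in their order along the genome, with the 95% interval from edgeR as a bar. The 2 rRNAs at the left, at 0.56 and 0.69, are the only genes whose bars do not reach 0, and the widest bars belong to genes with few counts such as mt-Tl1, mt-Tl2 and mt-Atp8.

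Complex I, NADH dehydrogenase, passes electrons from NADH to ubiquinone, and 7 of its core subunits are mitochondrial. Their median log2 fold change was -0.10, with 2 of 7 higher in EBM by value. mt-Nd5, a proton-pumping subunit, was at 1006, 1101 and 953 CPM in CBM and at 837, 886 and 943 CPM in EBM. It was the one protein gene whose regions did not overlap, with all EBM libraries lower, as for 7.65% of the genes tested. Its log2 fold change was -0.20 (95% interval -0.44 to 0.04, edgeR adjusted p = 0.691). The neighbouring mt-Nd6, the one protein gene of the light strand, overlaps the end of mt-Nd5 by 14 bases on the opposite strand, and whether the counting used the strand is not given in the sources used here. It was at 195, 227 and 189 CPM in CBM and at 155, 195 and 190 CPM in EBM, with a log2 fold change of -0.18 (95% interval -0.48 to 0.12, edgeR adjusted p = 0.810).

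The strands were compared by the counts of mt-Nd6 per 1000 counts on the protein genes of the heavy strand. There were 13.8, 15.7 and 15.5 of them in the CBM libraries and 11.7, 15.3 and 12.6 in the EBM libraries, with overlapping regions (exact permutation test on the log2 scale, two-sided p = 0.2). The log2 difference was -0.19, and the smallest p that this test allows is 0.1, so it cannot settle whether the strands differ between regions. mt-Nd1, the subunit beside the ubiquinone site, was at 2124, 2071 and 1816 CPM in CBM and at 1811, 1791 and 1996 in EBM. Its log2 fold change was -0.10 (95% interval -0.35 to 0.14), and those of the pumping subunits mt-Nd2 and mt-Nd4 were -0.0069 and 0.03. The small subunits mt-Nd3 and mt-Nd4l had log2 fold changes of 0.11 and -0.14, with 6.35 to 7.79 CPM and 7.24 to 10.2 CPM over the 6 libraries. None of these 5 genes had regions that did not overlap.

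In complex III, which passes electrons on to cytochrome c, the one mitochondrial subunit is mt-Cytb, cytochrome b. It was at 2026, 2168 and 1759 CPM in CBM and at 1855, 1744 and 2184 CPM in EBM, and its log2 fold change was -0.04 (95% interval -0.35 to 0.26). The highest and the lowest of its libraries were both from EBM. In complex IV, cytochrome c oxidase, mt-Co1 carries the heme and copper centre where oxygen is reduced. It had the most counts of the mitochondrial genes in these libraries, at 6865, 6819 and 5748 CPM in CBM and 6623, 6403 and 7539 CPM in EBM. Its regions overlapped and its log2 fold change was 0.08 (95% interval -0.20 to 0.36). mt-Co2, which takes the electrons from cytochrome c, and mt-Co3 had log2 fold changes of 0.15 and -0.0090.

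In complex V, the ATP synthase, mt-Atp6 forms part of the proton channel and mt-Atp8 is a small subunit of the same membrane part. mt-Atp6 was at 58.3, 55.7 and 41.9 CPM in CBM and 48.0, 56.5 and 65.0 CPM in EBM, a log2 fold change of 0.12 (95% interval -0.28 to 0.52). mt-Atp8 had 45, 62 and 35 counts in CBM and 78, 49 and 73 in EBM. The regions overlapped through EBM replicate 2, and the log2 fold change of 0.63 had a 95% interval from -0.14 to 1.41 (edgeR adjusted p = 0.698). With 342 counts over the 6 libraries it was the least counted protein gene, and 43 of its 204 bases are those shared with mt-Atp6 in the sequence above.

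The make-up of the protein counts was set out as the percent that each gene took of them. mt-Co1 took 47.9%, 46.6% and 46.5% in CBM and 49.7%, 49.4% and 49.5% in EBM. The 3 EBM libraries were close to each other and above all those from CBM (two-sided p = 0.1 by the exact permutation test). mt-Nd1 took 14.8%, 14.1% and 14.7% in CBM and 13.6%, 13.8% and 13.1% in EBM, and mt-Nd5 took 7.01%, 7.52% and 7.70% in CBM and 6.28%, 6.83% and 6.19% in EBM. Both were lower in each EBM library, again with an exact permutation p of 0.1. mt-Nd4 was the fourth gene without overlap, with 6.34% to 6.40% in CBM and 6.42% to 6.63% in EBM. Thus 4 of the 13 shares did not overlap, 2 higher and 2 lower in EBM, where the CPM of 15.1% of all genes tested did not overlap. The same share within a set of genes was not computed for other sets. The shares of one library sum to a fixed total, so they are not independent of each other, and they were examined after the fold changes were seen.

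The levels of the protein genes differed far more from each other than between the regions. Per kilobase of gene length, and as the median of 6 libraries, mt-Co1 was at 4350 CPM, mt-Nd1 at 1992, mt-Cytb at 1696 and mt-Nd2 at 949. mt-Co1 was above mt-Nd1 in its lowest library, while mt-Nd1 and mt-Cytb overlapped and mt-Cytb was clear of mt-Nd2. Next in this order per kilobase were mt-Nd4 at 653 CPM, mt-Nd5 at 520 and mt-Nd6 at 371. Of these, mt-Nd4 and mt-Nd5 overlapped, while mt-Nd5 was clear of mt-Nd6. By this median over both regions the rRNAs came next, with mt-Rnr1 at 247 and mt-Rnr2 at 174 CPM per kilobase. mt-Rnr1 overlapped mt-Nd6, and the ranges of the 2 rRNAs overlapped as well. By the counts on the gene alone, the lowest of the protein genes per kilobase were mt-Co2 at 123 CPM, mt-Atp6 at 82.4, mt-Co3 at 55.9, mt-Nd4l at 27.3, mt-Nd3 at 19.6 and mt-Atp8 at 14.7. Among these the neighbours mt-Co2 and mt-Atp6 overlapped, and so did mt-Nd3 and mt-Atp8.

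A pseudogene block on the minus strand of chromosome 1 (GRCm38, 24611535 to 24616197) holds 7 stretches that match mitochondrial protein genes over at least 250 bases with at least 99% identity. Such nuclear copies of mitochondrial DNA are common in mammals, and a read of 150 bases from an identical stretch fits both places. For mt-Co2, mt-Atp6, mt-Co3, mt-Nd3 and mt-Nd4l between 97.0% and 99.8% of all windows of 150 bases were also found in the copy. For mt-Nd4 this was 59.2% and for mt-Co1 23.6% of the windows, and for the other 6 protein genes and both rRNAs it was 0%. The copy of mt-Co2, Gm28661, matched over 681 bases with 100% identity. The copies of mt-Co1 (Gm29216) and mt-Nd3 (Gm28438) differed from the gene by 1 base each, A1066T and T3C, with the mitochondrial base first and positions counted from the first base of the mitochondrial gene.

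The table held counts on both members of each pair. Gm28661 had 14048 counts over the 6 libraries and mt-Co2 had 8764, and Gm10925 had 14063 where its partner mt-Atp6 had 5825. Gm28437 had 9770 and mt-Co3 had 4576. In these pairs, and in those of mt-Nd3 (1406 on Gm28438 and 755 on the gene) and mt-Nd4l (1261 on Gm10222 and 904 on the gene), the copy had more counts than the gene. The gene's part of the pair ranged over libraries from 33.6% to 42.4% for mt-Co2, from 27.0% to 33.2% for mt-Atp6 and from 29.8% to 34.4% for mt-Co3. It was at least 98.4% for mt-Co1 and at least 95.7% for mt-Nd4. How reads that fit both places were counted is not given in the sources used here, and such reads may also have been left out. The levels of mt-Co2, mt-Atp6, mt-Co3, mt-Nd3 and mt-Nd4l are therefore uncertain. So, in part, are those of mt-Nd4 and mt-Co1, where 59.2% and 23.6% of the windows are shared. A high part of the pair does not remove this limit.

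With the 2 members summed, the level per kilobase was 321 CPM for mt-Co2, 274 for mt-Atp6, 174 for mt-Co3, 67.3 for mt-Nd4l and 56.7 for mt-Nd3, all below mt-Nd5. A sum holds only reads that were counted on one of the members, and any counted on neither are missing from it. The sums are therefore not corrected levels, and their order beside genes without a copy is uncertain. By these medians over both regions the sums for mt-Co2 and mt-Atp6 were above both rRNAs, where the genes alone were below them. This order does not hold for each region. In the EBM libraries mt-Rnr1 was at 275, 298 and 378 CPM per kilobase, above the median of the mt-Atp6 sum. The log2 fold changes of the sums were 0.08 for mt-Co1, 0.09 for mt-Co2, 0.09 for mt-Atp6, 0.03 for mt-Co3, -0.10 for mt-Nd3, -0.25 for mt-Nd4l and 0.03 for mt-Nd4. None passed the test, with edgeR adjusted p from 0.755 to 0.989. For mt-Co3 and mt-Nd3 the sign differed from that of the gene alone. A further 36 matches of at least 250 bases, in 32 genes, had identities of 69.8% to 97.6%.

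**Figure D3:**
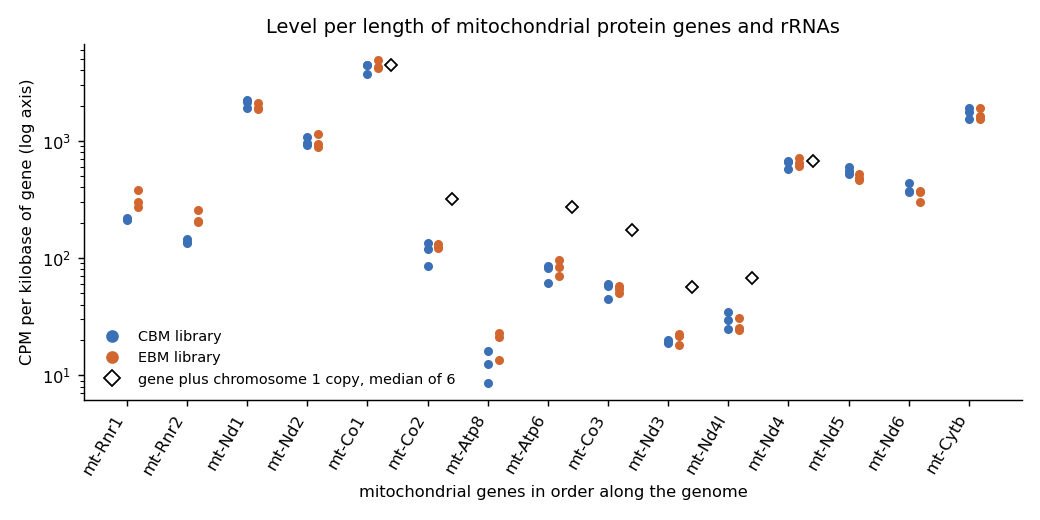
Level per length of the 13 protein genes and 2 rRNAs in CPM per kilobase on a log axis, with a point for each library and, for 7 genes, a diamond for the median of the gene summed with its chromosome 1 copy. The differences between genes, from 14.7 for mt-Atp8 to 4350 for mt-Co1, are larger than those between regions, and the diamonds lie well above the points for mt-Co2, mt-Atp6, mt-Co3, mt-Nd3 and mt-Nd4l. Any reads counted in neither place are missing from a diamond.

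Mitochondrial tRNAs carry amino acids to the mitochondrial ribosome. At 59 to 75 bases they are shorter than a read, so a read of full length cannot lie within one of them. Of the 22 genes, 17 had a count, and 5 (mt-Tf, mt-Tv, mt-Ts1, mt-Td and mt-Tk) were at 0 in all libraries, which allows up to 3 counts, or 0.149 to 0.193 CPM, per library. mt-Tv, which parts the rRNA genes, was among those at 0 although the genes on both sides of it were well counted. The tRNAs together had 1243, 1145 and 1316 counts in CBM and 1259, 1313 and 1215 in EBM. As a share of all counts this was 0.00670% ± 0.000605 in CBM and 0.00716% ± 0.000289 in EBM (SD, n = 3 each; exact permutation test, two-sided p = 0.3).

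The counts were uneven between genes and, through 3 of them, between strands. The 8 tRNAs of the light strand had between 1093 and 1251 counts per library and the 14 of the heavy strand between 52 and 87. The 3 best counted, shown above, were all of the light strand and held most of its counts. Its other tRNAs had few counts over the 6 libraries, with 34 on mt-Ty, 9 on mt-Te, 1 on mt-Tq, 1 on mt-Ta and 0 on mt-Ts1. On the heavy strand mt-Tl2 had 186 and mt-Tl1 had 87. The difference between the strands thus rested on 3 genes and did not hold for the light-strand tRNAs as a class. mt-Tp, for proline, had 814, 672 and 712 counts in CBM and 835, 787 and 696 in EBM. Its neighbour on the other strand, mt-Tt for threonine, had 5 counts over the 6 libraries. mt-Tc, for cysteine, had 187, 222 and 294 counts in CBM and 170, 267 and 220 in EBM. mt-Tn, for asparagine, had 153, 193 and 219 in CBM, and the EBM libraries had 184, 190 and 235. For each of the 3 the regions overlapped.

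Only 5 tRNAs were counted highly enough to be tested, and 0 had an unadjusted p under 0.05 in edgeR. Their log2 fold changes were 0.20 for mt-Tp (95% interval -0.12 to 0.52), 0.06 for mt-Tc (-0.48 to 0.59) and 0.27 for mt-Tn (-0.22 to 0.75). The 2 leucine tRNAs, mt-Tl2 and mt-Tl1, had log2 fold changes of 0.08 and -0.36 with totals of 186 and 87 counts. mt-Tl1 lies directly after mt-Rnr2 with no base between them, and it had 15, 14 and 22 counts in CBM and 8, 18 and 10 in EBM. As fold changes, the 95% intervals were 0.718 to 1.505 for mt-Tc and 0.859 to 1.69 for mt-Tn. They were 0.522 to 2.13 for mt-Tl2 and 0.403 to 1.505 for mt-Tl1. A 1.5-fold increase lay within each of these intervals, though barely for mt-Tc and mt-Tl1. A 1.5-fold decrease lay within those of mt-Tl2 and mt-Tl1 only. The interval of mt-Tp, 0.923 to 1.43, held neither. What set the width of the intervals was not tested.

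**Figure D4:**
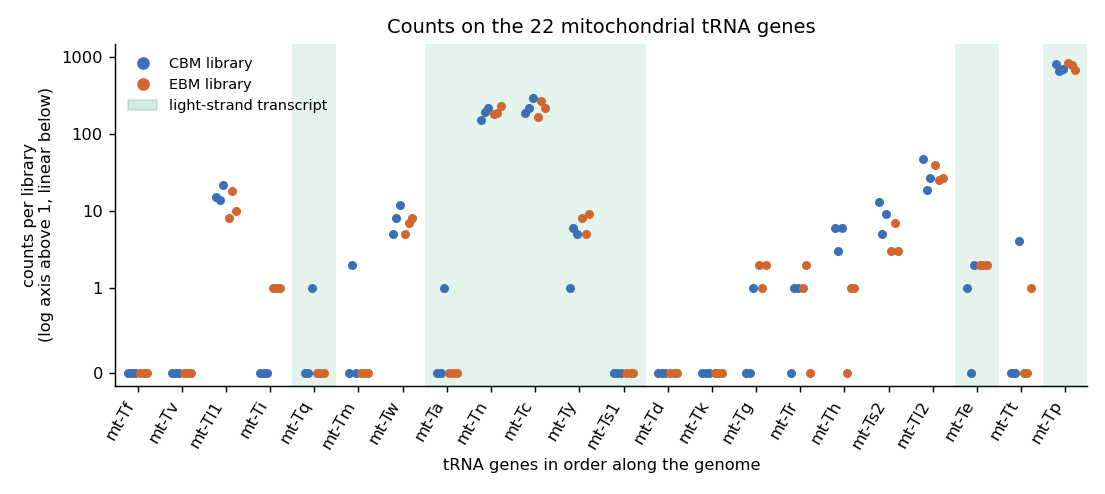
Counts on each of the 22 tRNA genes in order along the genome, 1 point per library, on an axis that is logarithmic above 1 and linear below, with genes of the light strand shaded. mt-Tp, mt-Tc and mt-Tn stand out with 153 to 835 counts, all 3 in shaded columns, and 5 genes lie at 0.

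The rest of the machinery that copies, reads and uses the mitochondrial genome is encoded in the nucleus, and was followed in 6 lists of 108 genes, of which 107 were tested. By value 46 of them lay higher and 61 lower in EBM, and their median log2 fold change was -0.03. An unadjusted p under 0.05 was found for 4 genes that were higher and 6 that were lower, beside 4.01% and 3.9% of all genes, and none passed an adjusted p of 0.05 in edgeR. In DESeq2 3 genes had an adjusted p under 0.05, Supv3l1, Polg2 and Gabpb1, all higher in EBM, beside 1.07% of all genes in that direction.

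The list for RNA processing, decay and modification had 40 genes, 20 higher and 20 lower, with a median of 0.02. Its gene with the smallest p was Supv3l1, the helicase that unwinds RNA for the mitochondrial degradosome. It was at 37.5, 40.9 and 40.0 CPM in CBM and at 61.0, 62.3 and 69.3 CPM in EBM. Every EBM library was well above every CBM library, and the log2 fold change was 0.70 (95% interval 0.47 to 0.93, edgeR adjusted p = 0.123, rank 23 of all genes). Its partner Pnpt1, the exoribonuclease of the same complex, had a log2 fold change of -0.05 (95% interval -0.31 to 0.22, edgeR adjusted p = 0.982). Ngrn, a factor known to be needed for the 16S rRNA, had a log2 fold change of 0.57 (95% interval 0.24 to 0.89, edgeR adjusted p = 0.325), with 25.7, 32.8 and 34.0 CPM in CBM and 45.9, 43.0 and 48.2 in EBM. Pnpt1 and Ngrn were named after their values were seen, and a part of either in the rRNA values was not tested. Other genes of this list that act on mitochondrial rRNA are not described here, so Ngrn cannot stand for them. Fastkd3, an RNA-binding protein of the matrix, was at 8.80 to 10.4 CPM in EBM and 10.8 to 15.4 in CBM, a log2 fold change of -0.47 (95% interval -0.89 to -0.04, edgeR adjusted p = 0.591).

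In the list for mitochondrial DNA replication and nucleotide supply, 5 of 15 genes were higher in EBM and the median was -0.10. Polg2, the accessory subunit of the mitochondrial DNA polymerase, was between 18.7 and 26.5 CPM in CBM and at 31.6, 52.8 and 45.5 CPM in EBM. The regions did not overlap, and the log2 fold change was 0.91 (95% interval 0.38 to 1.44, edgeR adjusted p = 0.334). Twnk, the replicative helicase, was lower in each EBM library by value, with a log2 fold change of -0.38 (95% interval -0.69 to -0.06, edgeR adjusted p = 0.546). In the list for transcription, 3 of 10 were higher with a median of -0.10. Tfam, which packs the DNA and starts its transcription, was at 46.3 to 53.7 CPM in CBM and 50.8 to 53.2 in EBM (log2 fold change 0.08). Mterf2, of the termination factor family, had a log2 fold change of -0.47 (95% interval -0.88 to -0.06, edgeR adjusted p = 0.564), and its 545 counts share 1186 bases with Tmem263 on the opposite strand.

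Among 23 genes that charge mitochondrial tRNAs, 9 were higher and 14 lower, with a median of -0.03. Mars2, the methionine enzyme, was at 47.3, 46.7 and 53.5 CPM in CBM and 34.6, 38.4 and 32.9 CPM in EBM, with no overlap. Its log2 fold change was -0.48 (95% interval -0.74 to -0.22, edgeR adjusted p = 0.310), while Fars2, the phenylalanine enzyme, was at 0.34. Of 11 translation factors and membrane insertion genes 5 were higher, with Tufm, the elongation factor, at a log2 fold change of 0.24 and Mtif2, an initiation factor, at -0.22. Of 8 tested regulators of mitochondrial biogenesis 4 were higher. Gabpb1, a subunit of the factor GABP that drives nuclear genes of respiration, was at 39.5, 40.3 and 39.2 CPM in CBM and at 61.4, 61.5 and 49.0 in EBM, again without overlap. Its log2 fold change was 0.53 (95% interval 0.25 to 0.81, edgeR adjusted p = 0.296), and that of its DNA-binding partner Gabpa was -0.09. As for Mterf2, other named genes share bases with a gene on the opposite strand. Among them are Gabpa, with 701 bases in Atp5j (12415 counts), and Fars2, with 115 bases in Lyrm4 (1335 counts).

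Complexes I, III, IV and V are built from subunits of both genomes. Of 72 nuclear subunits tested, 59 lay higher and 13 lower in EBM by value, around a median log2 fold change of 0.11. Over all genes 6726 were higher and 6626 lower. In complex I the median was 0.12 for 36 nuclear subunits and -0.10 for the 7 mitochondrial ones. In complex III it was 0.12 for 9 nuclear subunits beside -0.04 for mt-Cytb. In complex IV it was 0.15 for 11 and 0.08 for the 3 mitochondrial subunits, and in complex V it was 0.10 for 16, beside 0.12 for mt-Atp6 and 0.63 for mt-Atp8. The difference between the genomes was not tested, and subunits are not replicates of a region. Of the nuclear subunits 0 passed an adjusted p of 0.05 and 2 had an unadjusted p under 0.05 in edgeR, beside 7.91% of all genes. These were Ndufa10 at a log2 fold change of 0.24 and Atp5c1 at 0.21. In complexes III and IV the higher genes with the smallest p were Uqcrc2 at 0.20 and Cox8a at 0.23. Among lower genes the smallest p belonged to Ndufa12 at -0.21, Uqcr11 at -0.01, Cox5a at -0.02 and Atp5g1 at -0.08, for complexes I, III, IV and V. The summed level of the 11 nuclear subunits of complex IV was 1439, 1455 and 1468 CPM in CBM and 1633, 1475 and 1677 CPM in EBM, and EBM replicate 2 lay close to the highest CBM library.

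**Figure D5:**
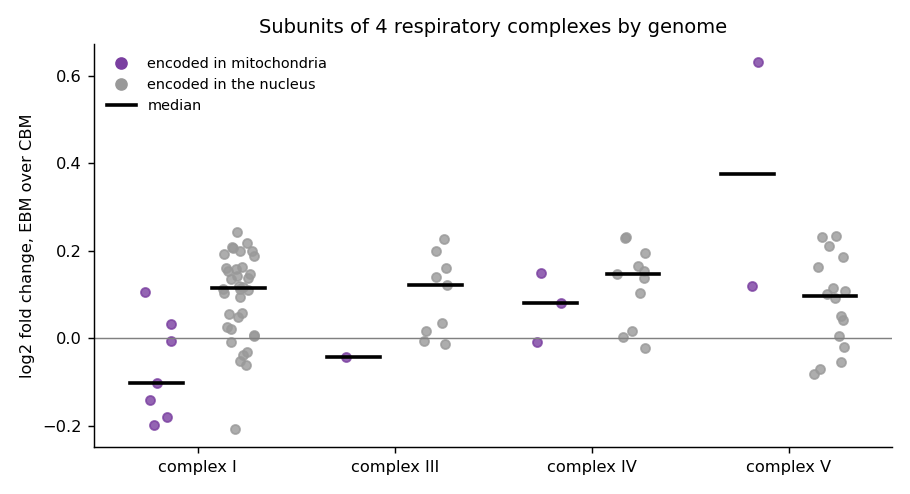
Log2 fold change of EBM over CBM for each subunit of 4 respiratory complexes, with subunits encoded in mitochondria and in the nucleus side by side and a line at each median. The nuclear medians lie between 0.10 and 0.15, and the mitochondrial ones at -0.10 in complex I, -0.04 in complex III and 0.08 in complex IV, with 2 genes in complex V.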

How the data were processed

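RNA was extracted with the RNeasy Plus Micro Kit and made into directional libraries, 3 from CBM and 3 from EBM. Per the labels, reads were handled with HISAT2 2.0.5 and mm10. The counting tool, its use of strand and its treatment of reads that match several places are not given in the sources used here. The authors deposited raw counts per gene, without normalization, with gene coordinates and lengths.

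From the deposited counts, genes were kept by filterByExpr, scaled by TMM (factors 0.948 to 1.037) and tested with edgeR 4.0.16 (quasi-likelihood F-test, common dispersion 0.0617, prior degrees of freedom 2.81, Benjamini-Hochberg adjustment over all 13352 genes at 0.05). The design has no block, after the unpaired test in the study's methods. Single values per library were compared by exact permutation over the 20 relabellings, whose smallest two-sided p is 0.1. Alternatives were DESeq2 1.42.0, limma 3.58.1 (voom), other scalings and filters, a replicate block, each library left out, and, added after seeing the data, DESeq2 on the filtered genes and the summing of nuclear copies. The methods were tested on simulated data.

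Sequences shared with the nuclear genome were found with BLAST+ 2.17.0 among GENCODE M21 transcripts. The floor of 3 counts covers counting error only. Replicates of a region differed by more than sampling noise (chi-square per degree of freedom at least 13.3). The members and the gene lists were chosen with earlier results of these data known. Named are all mitochondrial protein genes and rRNAs, the 5 tRNAs with the most counts, genes matching the mitochondrial sequence, and in each nuclear list the gene with the smallest p in each direction. Pnpt1 and Ngrn are outside this rule. Marker lists were fixed likewise.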

Additional observations from a re-analysis of the deposited data

How the results depend on the processing

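With DESeq2 the number of mitochondrial genes at an adjusted p under 0.05 moved from 0 in edgeR to 2, and that of nuclear list genes from 0 to 3. With DESeq2 on the filtered genes, added after seeing the data, these were 2 and 5. The 2 were the rRNAs, at log2 fold changes of 0.69 for mt-Rnr2 (adjusted p = 0.000722) and 0.56 for mt-Rnr1 (0.0445) with DESeq2, and at 0.68 (0.000208) and 0.56 (0.0266) on the filtered genes; the cause was not tested. Over all genes DESeq2 called 176, DESeq2 on the filtered genes 201, edgeR with every gene of at least 1 count 40 and edgeR otherwise 0 (1056 at an unadjusted p under 0.05). In the other 15 alternatives the rRNAs stayed higher in EBM without passing.

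Signs changed for genes near 0. mt-Co3 was at 0.0036 with limma-voom and 0.028 with its copy added, mt-Nd3 at -0.10 with its copy added, mt-Nd4 at -0.0032 with upper quartile factors and -0.041 with total counts, and mt-Tc at -0.018 with total counts. The protein share differed by 0.00567 percentage points with the TMM-scaled total. Total counts as the scaling shifted the median of all genes to -0.07.

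With each library left out in turn, the log2 fold change lay between 0.56 and 0.74 for mt-Rnr2, 0.40 and 0.65 for mt-Rnr1, -0.13 and 0.064 for mt-Nd2, -0.071 and 0.24 for mt-Tc, -0.0011 and 0.13 for mt-Co1, -0.018 and 0.29 for mt-Co2, -0.013 and 0.22 for mt-Atp6, -0.13 and 0.075 for mt-Co3, -0.042 and 0.079 for mt-Nd4, -0.19 and 0.60 for mt-Tl2, and -0.15 and 0.028 for mt-Cytb. The protein median lay between -0.05 and 0.06, and the rRNA to protein ratio between 0.56 and 0.68 on the log2 scale.

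In the fit with a replicate block, mt-Rnr2 had a log2 fold change of 0.68 (adjusted p = 0.329 in edgeR) and mt-Rnr1 one of 0.54 (0.461), and 0 genes were called. Deviations from the group means correlated with r of 0.68, -0.20 and 0.20 between libraries numbered 1, 2 and 3. With 3 libraries per region these values cannot settle whether the numbers mark pairs. EBM cells came from bones already flushed for CBM cells, but no source used here states which libraries share a mouse. The main fit has no block because the study's methods name an unpaired test. The counts of 17 tRNAs were too low for a test, and why they were low was not tested. mt-Tl1, mt-Tl2 and mt-Atp8 had the fewest counts of the mitochondrial genes tested.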
